A study of Homo sapiens with 6 samples.

Results

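The AP-1, EGR and NR4A transcription factors are products of immediate-early genes, which cells transcribe straight after a stimulus without first making new protein. The 10 members described here, FOS, FOSL2, JUN, JUNB, JUND, EGR1, EGR2, NR4A1, NR4A2 and NR4A3, were taken by gene symbol from the 15802 genes of the deposited table, and all 10 were found. They were read by bulk sequencing of poly(A)-selected RNA in the human lymphoma line SC1, which is of B-cell origin, in 3 libraries from cells given bryostatin at 1 nM and 3 libraries from cells given DMSO, the solvent. How long the cells were treated is given in no source used here. Nothing in the labels ties the replicates to separate cultures, and each p-value therefore rests on variation among libraries that may be technical.

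AP-1 is a dimer of a JUN protein with a FOS, JUN or related leucine-zipper protein, and it binds the TPA response element, a motif named after a phorbol ester that, like bryostatin, binds the diacylglycerol site of protein kinase C. EGR proteins are zinc-finger factors that serum response factor (SRF) and its ELK partners switch on downstream of ERK. NR4A proteins are orphan nuclear receptors that act without a known natural ligand, and in lymphocytes their transcription follows antigen-receptor signalling. Many transcripts of these families are short-lived, so their level depends strongly on when RNA is collected.

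NR4A3 was the member that changed. It fell to 18.7% of its DMSO level with bryostatin (log2 fold change -2.42 ± 0.26, SE, edgeR adjusted p = 0.00201, n = 3 libraries in each group). Its relative NR4A1, the most abundant of the 10 per transcript length, was at 77.3% of its DMSO level, with groups that did not overlap and an adjusted p of 0.105. The FOS, JUN and EGR members did not pass the test in all 6 libraries. When the library bryostatin 1 was left out, FOS and JUNB passed as higher and NR4A1, like NR4A3, as lower. That setting called 13.8% of all genes higher and 13.2% lower.

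Of the 10 members, 9 had enough counts to be tested, and 1 of the 9 passed at an adjusted p under 0.05, against 4.56% of all 11613 genes tested (0.835% lower and 3.72% higher). The median log2 fold change was -0.05 over the 9 members and -0.00 over all genes tested. At an unadjusted p under 0.05 there were 3 members, NR4A3, NR4A1 and JUNB, against 18.7% of all genes. Values below are CPM, counts per 1000000 of the scaled library size, unless TPM, which also divides by transcript length, is named. Total expected counts were 18162161 to 18915394 per library. The library bryostatin 1 stood apart from its group, and its median gene differed from the DMSO mean on the log2 scale by 0.218 for transcripts of up to 1653 bases and by -0.232 for those of at least 4255 bases, against -0.076 to 0.05 over all lengths in bryostatin 2 and 3. Of all genes tested, 33.4% were lowest in bryostatin 1 among the 6 libraries, and 7 of the 9 tested members were (44.3% of genes and the same 7 members were lowest among the 3 bryostatin libraries). What part the length pattern has in the members' values was not tested. The summed level of 6 B-cell markers was 3130 to 3270 CPM with bryostatin and 2050 to 2150 CPM with DMSO, and 5 T and NK cell markers in the table summed to 0 to 0.216 CPM with bryostatin and 0 to 0.106 CPM with DMSO, while 7 myeloid markers summed to 12 to 23.7 CPM with bryostatin and 18.1 to 29.2 CPM with DMSO. In bulk RNA, fewer cells with a transcript and less of it per cell cannot be told apart.

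**Figure D1:**
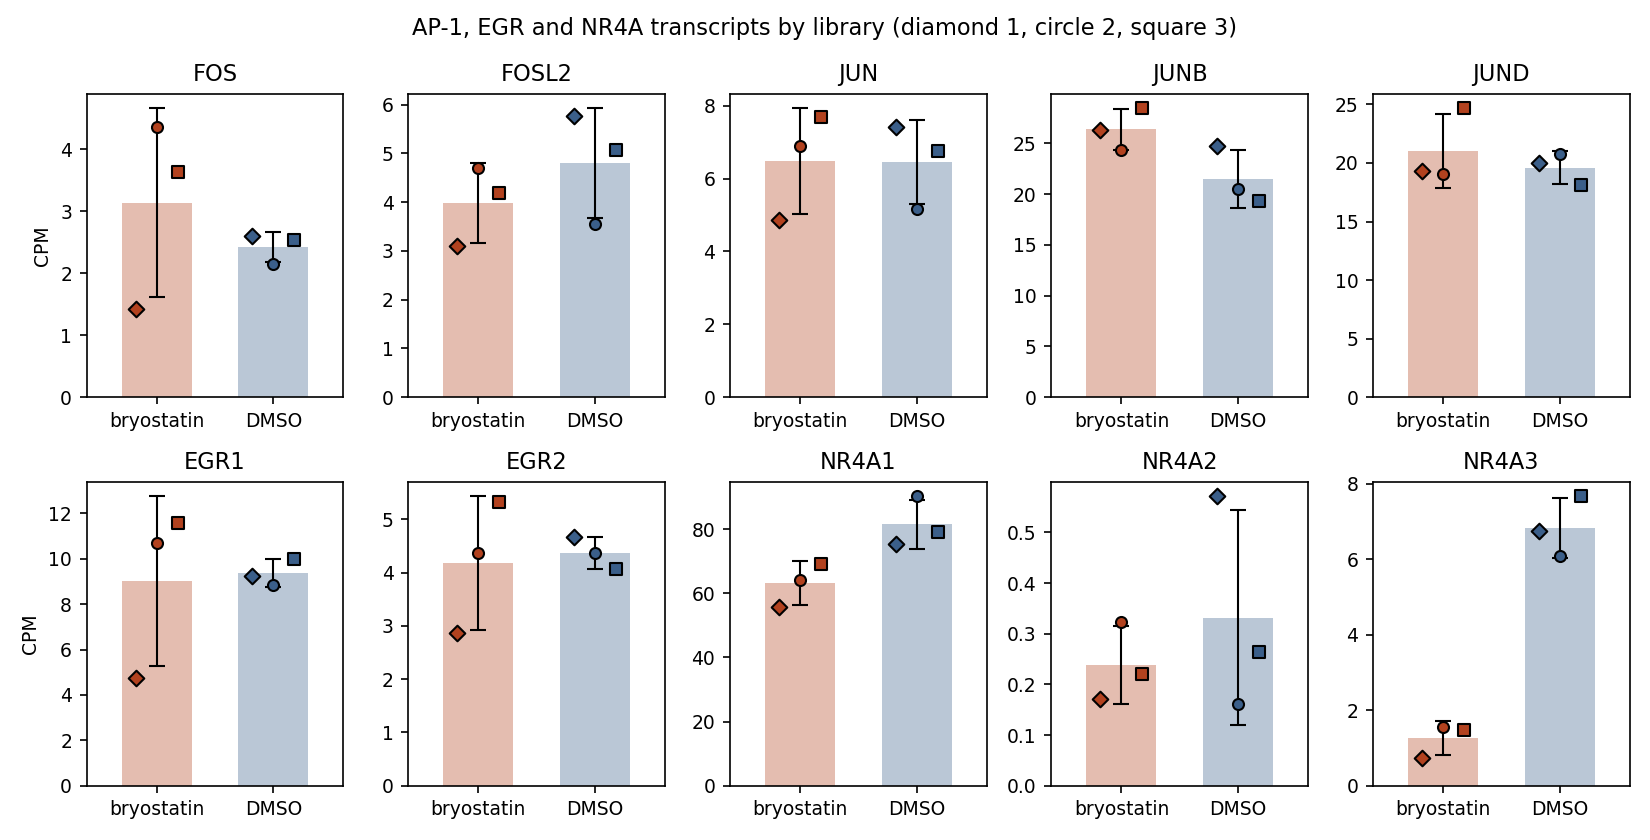
CPM of each of the 10 genes in the 3 bryostatin and 3 DMSO libraries, on a separate axis from 0 for each gene. Bars are group means, error bars are SD (n = 3) and points are libraries (diamond 1, circle 2, square 3); only NR4A1 and NR4A3 have all bryostatin points below all DMSO points, and bryostatin 1 is the lowest point of all 6 for FOS, FOSL2, JUN, EGR1, EGR2, NR4A1 and NR4A3.

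The NR4A receptors were described first because they held the one call. NR4A3 (chr9:99821885-99866891, + strand, RefSeq on GRCh38.p14, as are the other positions), known as NOR1 and fused to other genes in a soft-tissue sarcoma, had 13, 29 and 27 expected counts in bryostatin 1, 2 and 3, against 130, 113 and 145 in DMSO 1, 2 and 3. These were 0.743, 1.56 and 1.48 CPM with bryostatin and 6.75, 6.08 and 7.66 CPM with DMSO. Every bryostatin library was far below every DMSO library, and the highest bryostatin value was under the lowest DMSO value by more than the spread within either group. The means were 1.26 ± 0.452 CPM with bryostatin and 6.83 ± 0.793 CPM with DMSO (SD, n = 3 each), a 5.36-fold difference with a 95% interval of the log2 fold change from -3.02 to -1.82. By p-value NR4A3 ranked 75 among the 11613 genes. The call held in all 18 alternative settings, with adjusted p from 7.88e-14 by DESeq2 to 0.0235 without DMSO 3, and without bryostatin 1 the log2 fold change was -2.16 (edgeR adjusted p = 1.07e-07).

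NR4A1 (chr12:52022832-52059503), known as NUR77 and widely used as a reporter of antigen-receptor signal strength, had 55.7, 64.3 and 69.2 CPM in bryostatin 1, 2 and 3, against 75.5, 90.2 and 79.1 CPM in DMSO 1, 2 and 3. All bryostatin libraries were lower than all DMSO libraries, but the gap between bryostatin 3 and DMSO 1 was smaller than 1 SD of either group. The log2 fold change was -0.37 ± 0.11 (95% interval -0.62 to -0.12, edgeR adjusted p = 0.105). NR4A1 therefore did not pass with all 6 libraries, and it passed as lower without bryostatin 1, at -0.29 on the log2 scale by edgeR (adjusted p = 0.00567). That setting called 4 of the 9 tested members, 2 lower and 2 higher, and 27.0% of all genes, 13.2% lower and 13.8% higher. DESeq2, which called 1.95% of genes lower, gave adjusted p = 0.0367 for NR4A1, and limma-voom with library quality weights, which called 12.1% lower, gave 0.00980. Groups that did not overlap with bryostatin lower were seen for 2 of the 9 tested members, NR4A1 and NR4A3, and for 12.5% of all genes tested. No member lay wholly higher, against 15.3% of genes, and 27.8% of genes were separated in either direction.

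NR4A2 (chr2:156324437-156332721), known as NURR1 and required for midbrain dopamine neurons, was near the detection limit. It had 3, 6 and 4 expected counts in bryostatin 1, 2 and 3, against 11, 3 and 5 in DMSO 1, 2 and 3. These were below the count filter, and NR4A2 was not tested in the fits that used it. The groups overlapped, and no difference was detectable at this depth.

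NR4A3 was also a smaller share of its family with bryostatin. On the TPM scale NR4A3 made up 0.572, 1.01 and 0.905% of the 3 NR4A transcripts in bryostatin 1, 2 and 3, against 3.65, 2.76 and 3.92% in DMSO 1, 2 and 3. The groups did not overlap, and this share, chosen after the values were seen, was not tested. It is a ratio within each library, so the scaling of library sizes does not enter it. The transcript lengths differ, at 5380 bases for NR4A3 and 2280 bases for NR4A1. What part the length pattern of bryostatin 1 has in this share was not tested.

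The promoters of both NR4A genes whose groups did not overlap are shown to set the sequence before each gene beside its values. Each is the 250 bases before the RefSeq gene start on GRCh38.p14, written 5′ to 3′ along the gene, with CRE half-sites (TGACG or its reverse complement) in capitals. They lie at chr9:99821635-99821884 for NR4A3 and chr12:52022582-52022831 for NR4A1.
NR4A3: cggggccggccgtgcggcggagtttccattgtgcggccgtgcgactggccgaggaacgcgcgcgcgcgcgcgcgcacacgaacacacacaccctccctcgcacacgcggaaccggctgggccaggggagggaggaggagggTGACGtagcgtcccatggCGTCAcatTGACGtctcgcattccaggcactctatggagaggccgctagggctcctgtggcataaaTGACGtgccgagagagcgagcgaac
NR4A1: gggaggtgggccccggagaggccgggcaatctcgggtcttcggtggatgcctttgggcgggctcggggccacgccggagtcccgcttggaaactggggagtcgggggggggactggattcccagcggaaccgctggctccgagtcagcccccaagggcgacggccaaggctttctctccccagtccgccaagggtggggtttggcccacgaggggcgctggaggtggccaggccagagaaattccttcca
The NR4A3 window held 4 CRE half-sites, which begin 109, 91, 83 and 25 bases before the start, and the NR4A1 window held none. GENCODE v29 gives NR4A1 19 distinct transcript starts and NR4A3 2, and the window before the outermost NR4A1 start need not be the one used in SC1.

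The EGR genes did not pass. EGR1 (chr5:138465479-138469303), the early growth response factor that serum and phorbol ester induce in many cell types, had 4.74, 10.7 and 11.6 CPM in bryostatin 1, 2 and 3, against 9.24, 8.83 and 10 CPM in DMSO 1, 2 and 3. Bryostatin 1 was well below every other library, while bryostatin 2 and 3 were above all DMSO libraries, so the groups overlapped. The log2 fold change was -0.05 (95% interval -0.71 to 0.61, edgeR adjusted p = 0.948), and without bryostatin 1 it was 0.25 ± 0.12 (edgeR adjusted p = 0.123). EGR2 (chr10:62811996-62819167), which in mouse B and T cells restrains or shapes responses to antigen, had 2.86, 4.37 and 5.33 CPM in bryostatin 1, 2 and 3, against 4.67, 4.36 and 4.07 CPM in DMSO 1, 2 and 3. Its groups also overlapped, with bryostatin 1 below all DMSO libraries, bryostatin 2 within their range and bryostatin 3 above it. The log2 fold change was -0.06 (95% interval -0.59 to 0.47, edgeR adjusted p = 0.924). Relative to the DMSO mean, the level in bryostatin 1 differed by -0.98 for EGR1 and by -0.61 for EGR2 on the log2 scale. The medians of that library for transcripts of like length were -0.029 for EGR1 and 0.085 for EGR2.

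The EGR promoters are shown because they held the SRF motif of the immediate-early response. Capitals mark CArG boxes, the SRF motif, with CRE half-sites and, in EGR1, a GCGNGGGCG site for EGR proteins themselves. The windows are chr5:138465229-138465478 and chr10:62819168-62819417, each given along its gene, on the + strand for EGR1 and the - strand for EGR2.
EGR1: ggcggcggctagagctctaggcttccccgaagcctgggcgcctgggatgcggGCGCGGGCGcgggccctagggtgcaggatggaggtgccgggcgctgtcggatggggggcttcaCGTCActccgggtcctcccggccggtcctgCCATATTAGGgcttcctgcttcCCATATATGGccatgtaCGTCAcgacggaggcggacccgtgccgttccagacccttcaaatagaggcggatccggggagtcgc
EGR2: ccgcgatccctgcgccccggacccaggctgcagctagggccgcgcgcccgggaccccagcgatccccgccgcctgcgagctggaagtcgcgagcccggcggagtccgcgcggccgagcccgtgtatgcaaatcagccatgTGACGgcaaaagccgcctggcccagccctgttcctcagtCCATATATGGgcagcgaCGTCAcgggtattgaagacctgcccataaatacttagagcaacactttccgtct
EGR1 held 2 CArG boxes, CCATATTAGG and CCATATATGG, which begin 105 and 83 bases before the start, and EGR2 held 1, CCATATATGG, which begins 71 bases before it. CArG boxes were found in 1.14% of 27305 promoter windows of this length, on both strands, and in 2 of the 9 windows of members. CRE half-sites (TGACG) were in 21.1% of all windows and in 8 of the 9, all but NR4A1. The full CRE, TGACGTCA, which overlaps the half-site, was in 1.73% of windows and in JUND. The EGR site GCGNGGGCG was in 7.97% of windows and in EGR1. The ETS core CCGGAAG was in 8.72% and the TPA response element TGANTCA in 6.84%, both without an exact match in any member window. The NR4A monomer motif AAAGGTCA was in 1.07% of windows and in no member window, and the NFAT core GGAAA was in 56.1% and in EGR2, NR4A1 and NR4A3. NR4A2 had no window in the table used. Sites that differ from the letters given, or lie outside the window, were not counted. The JUN window, for example, holds tgacatca, which is TGANTCA with a further base. The EGR1 window holds ttcc, the reverse complement of the GGAA in CCGGAAG, between its CArG boxes. A window without a match therefore does not show that the gene lacks sites for these factors.

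**Figure D2:**
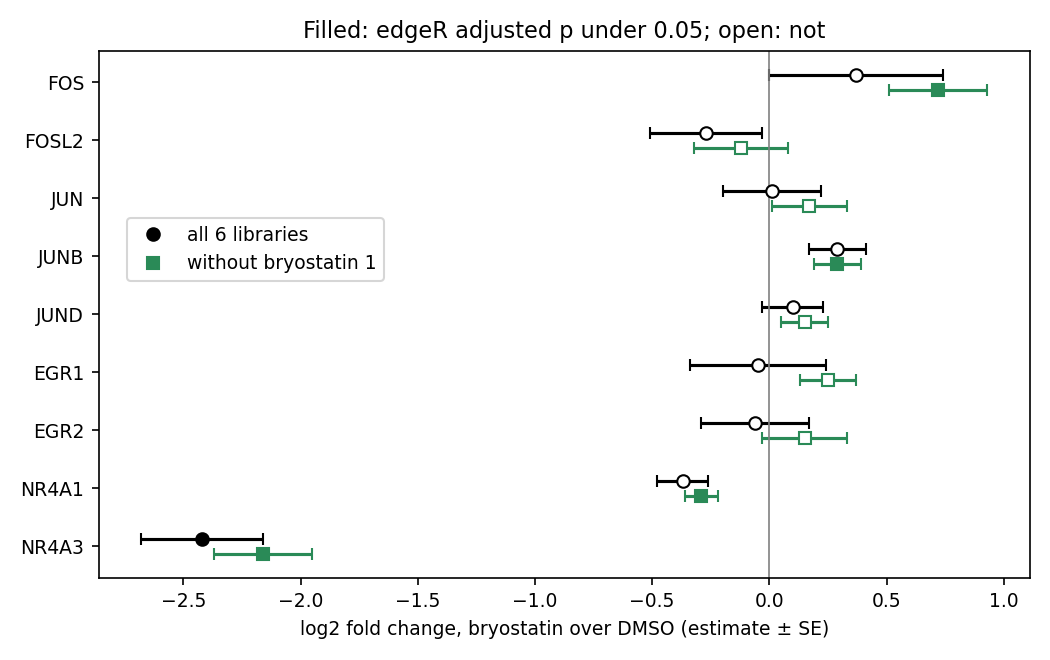
Log2 fold change of bryostatin over DMSO with its SE for the 9 tested genes, with all 6 libraries (black circles) and without bryostatin 1 (green squares). Filled symbols passed an edgeR adjusted p under 0.05; NR4A3 is filled in both, and NR4A1, FOS and JUNB are filled only without bryostatin 1.

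FOS did not pass with all 6 libraries. FOS (chr14:75278828-75282230), the partner of JUN in the classical AP-1 dimer, had 1.43, 4.37 and 3.63 CPM in bryostatin 1, 2 and 3, against 2.60, 2.15 and 2.54 CPM in DMSO 1, 2 and 3. Bryostatin 1 was the lowest of all libraries and the other bryostatin libraries the highest, and the SD was 48.6% of the mean with bryostatin and 9.90% with DMSO. The log2 fold change was 0.37 ± 0.37 (95% interval -0.47 to 1.22, edgeR adjusted p = 0.634). Without bryostatin 1 FOS rose, at 0.72 ± 0.21 on the log2 scale by edgeR (adjusted p = 0.0158), and limma-voom with quality weights, which called 13.7% of genes higher, gave adjusted p = 0.0279. FOSL2 (chr2:28392858-28417317), a FOS relative also called FRA2, had 3.09, 4.69 and 4.18 CPM in bryostatin 1, 2 and 3, against 5.76, 3.55 and 5.07 CPM in DMSO 1, 2 and 3. Its SD was 20.5% of the mean with bryostatin and 23.6% with DMSO. The groups overlapped, with a log2 fold change of -0.27 (95% interval -0.81 to 0.28, edgeR adjusted p = 0.596). FOSL2 made up 30.4 ± 11% of FOS plus FOSL2 TPM with bryostatin and 36.7 ± 5.11% with DMSO (SD, n = 3 each), a difference of -6.23 percentage points (exact permutation test, 2-sided, p = 0.4, where 0.1 is the smallest p the design allows).

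JUNB was the JUN member with the largest log2 fold change. JUNB (chr19:12791486-12793315), an AP-1 subunit that is high in several lymphomas, had 26.3, 24.4 and 28.5 CPM in bryostatin 1, 2 and 3, against 24.8, 20.5 and 19.3 CPM in DMSO 1, 2 and 3. Only DMSO 1 reached the bryostatin range, just above bryostatin 2. The log2 fold change was 0.29 ± 0.12 (95% interval 0.02 to 0.57, edgeR adjusted p = 0.234). JUNB was not low in bryostatin 1, and without that library the estimate was again 0.29, with SE 0.10 and edgeR adjusted p = 0.0406, while limma-voom with quality weights gave 0.0459. HOOK2 overlaps JUNB on the opposite strand in GENCODE v29, and no source used here says whether counting used strand. NR4A1 and FOSL2 likewise overlap the noncoding genes AC025259.3 and FLJ31356 on the opposite strand, neither of which is in the table. FOSL2 also overlaps the sense-intronic gene AC104695.3 on its own strand, which is not in the table either. HOOK2 had 3.38 ± 0.389 CPM with bryostatin and 3.49 ± 0.491 CPM with DMSO.

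JUN and JUND did not pass. JUN (chr1:58780791-58784047), whose protein JNK activates by phosphorylation, had 4.86, 6.90 and 7.70 CPM in bryostatin 1, 2 and 3, against 7.42, 5.17 and 6.76 CPM in DMSO 1, 2 and 3. The groups overlapped, with bryostatin 1 below and bryostatin 3 above all DMSO libraries. The log2 fold change was 0.01 (95% interval -0.48 to 0.50, edgeR adjusted p = 0.989). JUND (chr19:18279694-18281622), the steadily expressed JUN relative that is known to slow growth in mouse fibroblasts, had 19.3, 19.1 and 24.7 CPM in bryostatin 1, 2 and 3, against 20, 20.8 and 18.1 CPM in DMSO 1, 2 and 3. Only bryostatin 3 lay above the DMSO range, and the log2 fold change was 0.10 (95% interval -0.19 to 0.39, edgeR adjusted p = 0.723). JUND made up 39.8 ± 1.64% of JUN-family TPM with bryostatin and 42.7 ± 3.07% with DMSO (SD, n = 3 each), a difference of -2.9 percentage points (exact permutation test, 2-sided, p = 0.2).

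Per transcript length, NR4A1 was the most abundant member in both groups, at 40.1 ± 7.78 TPM with bryostatin and 55.2 ± 4.26 TPM with DMSO. JUNB followed at 24.3 ± 2.98 TPM with bryostatin and 21.1 ± 2.82 TPM with DMSO, then JUND at 18.3 ± 3.81 TPM with bryostatin and 18.1 ± 0.964 TPM with DMSO (SD, n = 3 each). JUNB and JUND overlapped with bryostatin and not with DMSO. EGR1, JUN, FOS and EGR2 stood next, at means of 2.28 to 4.65 TPM with bryostatin and 2.03 to 5.01 TPM with DMSO, and the bryostatin ranges of neighbours in that order overlapped. NR4A3 was ninth with bryostatin at 0.347 ± 0.145 TPM and eighth with DMSO at 1.96 ± 0.265 TPM, where its range overlapped that of FOS. FOS and FOSL2 together came to 4.56, 10.5 and 7.36% of JUN-family TPM in bryostatin 1, 2 and 3, against 8.02, 6.29 and 8.52% in DMSO 1, 2 and 3, with no separation of the groups. The 10 transcripts summed to 75.3, 102 and 113 TPM in bryostatin 1, 2 and 3, against 112, 112 and 108 TPM in DMSO 1, 2 and 3. The low sum was that of bryostatin 1.

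**Figure D3:**
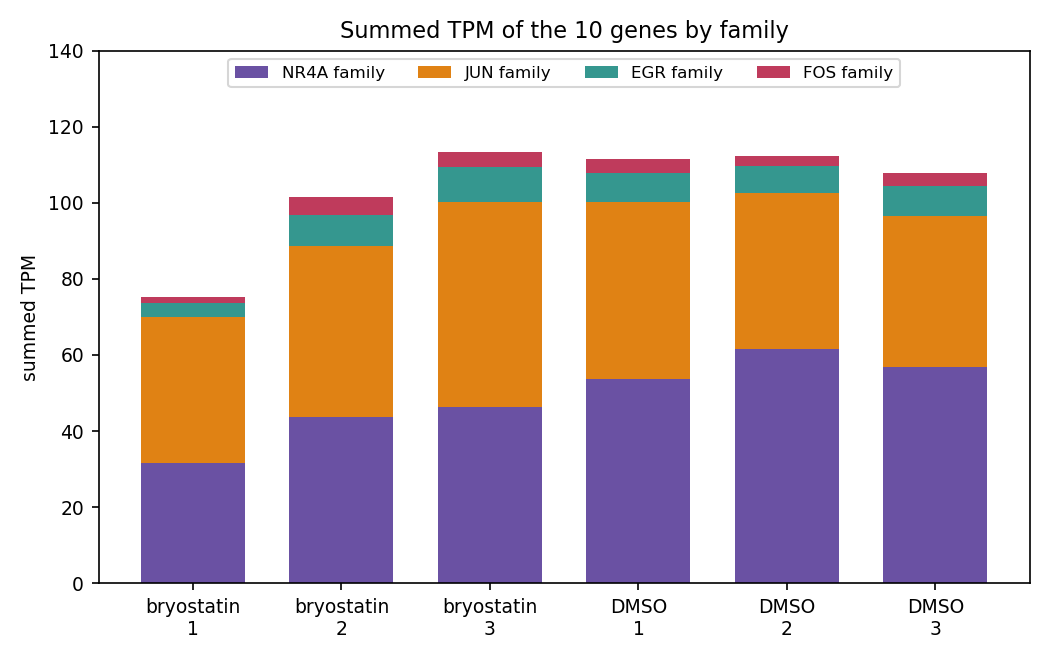
Summed TPM of the 10 genes in each library, stacked by family on an axis from 0, with the bryostatin libraries left of the DMSO libraries. The NR4A family summed to 31.5, 43.7 and 46.4 TPM in bryostatin 1, 2 and 3, each below its 53.6, 61.6 and 56.8 TPM in DMSO 1, 2 and 3, while the JUN family overlapped between groups.

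The listed partners of the members gave no edgeR call with all 6 libraries, beside 4.56% of all genes tested. Of 14 other leucine-zipper genes, 10 were tested and 0 passed by edgeR (2 at an unadjusted p under 0.05, 0 called by DESeq2, 0 by limma-voom and 1 by limma-voom with quality weights), with a median log2 fold change of -0.05. FOSB had 2.67 ± 0.92 CPM with bryostatin and 2.48 ± 0.142 CPM with DMSO (edgeR adjusted p = 0.873), FOSL1 had 1.14 ± 0.292 CPM with bryostatin and 1.48 ± 0.444 CPM with DMSO (0.596), and the stress-induced factor ATF3 had 6.71 ± 1.18 CPM with bryostatin and 6.30 ± 0.806 CPM with DMSO (0.826). FOSB was low in bryostatin 1, at 1.66 CPM against 3.45 and 2.91 CPM in bryostatin 2 and 3. BATF, a partner of JUN in lymphocytes, was at 0.350 CPM with bryostatin and 0.423 CPM with DMSO and was not tested. MAFK and ATF2 were among the genes of the list with the smallest p-values, with log2 fold changes of -0.36 and -0.22 and edgeR adjusted p of 0.140 and 0.316.

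EGR3, the closest listed relative of EGR1 and EGR2, did not pass with all 6 libraries. It had 2.23, 5.01 and 5.50 CPM in bryostatin 1, 2 and 3, against 10.3, 8.5 and 7.93 CPM in DMSO 1, 2 and 3, so every bryostatin library was below every DMSO library. The log2 fold change was -1.07 ± 0.29 (edgeR adjusted p = 0.0900, 7.34e-04 to 0.315 over the alternatives), and without bryostatin 1 it was -0.77 (edgeR adjusted p = 7.34e-04). Of the 3 tested EGR and NAB genes 0 passed by edgeR (1 at an unadjusted p under 0.05, 1 called by DESeq2, 0 by limma-voom and 1 by limma-voom with quality weights). The EGR co-repressor NAB2 had 11.1 ± 1.11 CPM with bryostatin and 10.4 ± 0.942 CPM with DMSO (adjusted p = 0.735), and NAB1 had a log2 fold change of -0.11 (0.619). Of the 2 tested RXR genes 0 passed by edgeR (0 at an unadjusted p under 0.05, 0 called by DESeq2, 0 by limma-voom and 0 by limma-voom with quality weights). RXRA and RXRB, heterodimer partners of NR4A1 and NR4A2, had log2 fold changes of -0.21 and -0.14 (edgeR adjusted p = 0.652 and 0.450).

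Of 21 regulators of these promoters, 3 rose, none fell and 18 did not pass, with a median log2 fold change of 0.16, against 3.72% of all genes called higher and 0.835% called lower. The number that rose was 1 on both TPM settings and without DMSO 1 or DMSO 3, and 11 without bryostatin 1, where 13.8% of all genes were called higher. HDAC7, a class IIa deacetylase that represses MEF2 targets such as NR4A1 in T cells, had 213, 201 and 203 CPM in bryostatin 1, 2 and 3, against 140, 144 and 143 CPM in DMSO 1, 2 and 3 (log2 fold change 0.53 ± 0.06, edgeR adjusted p = 0.00255, passing in all 18 alternatives). MEF2C, a factor needed for B-cell responses in mice, had 61.4 ± 5.43 CPM with bryostatin and 38.8 ± 0.0796 CPM with DMSO (log2 fold change 0.66 ± 0.09, edgeR adjusted p = 0.00533). Among the alternatives its adjusted p lay between 5.24e-08 and 0.0696, and leaving out DMSO 1 or DMSO 3 gave 0.0546 or 0.0517, and TPM with a pseudocount of 1 or 0.1 gave 0.0696 or 0.0690. CRTC2, a CREB co-activator, rose to 32.2 ± 2.61 CPM with bryostatin, against 22.3 ± 1.98 CPM with DMSO (log2 fold change 0.53 ± 0.11, edgeR adjusted p = 0.0296). Among the alternatives its adjusted p lay between 1.42e-05 and 0.18, and leaving out bryostatin 2 or 3 or DMSO 1, 2 or 3 gave 0.101, 0.103, 0.168, 0.146 or 0.0981. It also missed the threshold without scaling factors (0.0529) and on TPM with a pseudocount of 1 or 0.1 (0.18 or 0.179). SRF itself had 96.0 ± 3.20 CPM with bryostatin and 90.5 ± 4.06 CPM with DMSO (edgeR adjusted p = 0.576), and ELK1 had 65.9 ± 9.02 CPM with bryostatin and 69.1 ± 2.34 CPM with DMSO (0.775).

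Kinases and calcium-dependent regulators upstream of the members were largely without calls, as were all genes tested, of which 4.56% were called. Of 21 MAP kinase, MAP kinase kinase, RSK and MSK genes, 1 rose and 20 did not pass, with a median log2 fold change of -0.02. The riser was MAP2K3, an activator of p38, with 174 ± 7.30 CPM with bryostatin and 139 ± 6.11 CPM with DMSO (log2 fold change 0.33 ± 0.07, edgeR adjusted p = 0.0335). Among the alternatives the adjusted p lay between 1.03e-04 and 0.212, and leaving out bryostatin 2 or 3 or DMSO 1, 2 or 3 gave 0.0621, 0.125, 0.212, 0.109 or 0.196. The call was also lost with the replicate block (0.107) and on TPM with a pseudocount of 1 or 0.1 (0.0977 or 0.0971). RPS6KA4 and RPS6KA1, which encode MSK2 and RSK1, had log2 fold changes of -0.39 and 0.23 (edgeR adjusted p = 0.0831 and 0.0967). Of 11 NFAT and calcineurin genes 0 passed by edgeR (4 at an unadjusted p under 0.05, 0 called by DESeq2, 0 by limma-voom and 4 by limma-voom with quality weights), and NFATC3, NFATC1 and RCAN3 had the smallest p, with log2 fold changes of 0.23, 0.40 and 0.64 (edgeR adjusted p = 0.115, 0.120 and 0.151). Of 5 genes of JUN protein turnover 0 passed by edgeR (2 at an unadjusted p under 0.05, 0 called by DESeq2, 0 by limma-voom and 1 by limma-voom with quality weights), with log2 fold changes of 0.36, -0.26 and 0.18 for USP28, FBXW7 and DET1 (edgeR adjusted p = 0.111, 0.230 and 0.610).

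Other immediate-early genes went in both directions. Of 35 listed, 33 were tested, 2 rose, 1 fell and 30 did not pass, with a median log2 fold change of -0.01. Of all genes tested, 3.72% were called higher and 0.835% lower. ZFP36L1, which binds AU-rich elements and speeds decay of messenger RNA, had 69.3, 73.7 and 80 CPM in bryostatin 1, 2 and 3, against 30.2, 29.8 and 31.3 CPM in DMSO 1, 2 and 3 (log2 fold change 1.29 ± 0.09, edgeR adjusted p = 1.89e-04). IER2, a nuclear protein induced with FOS and JUN in many cells, had 27.2, 25.4 and 33.3 CPM with bryostatin and 14.5, 13.2 and 14.2 CPM with DMSO (log2 fold change 1.04 ± 0.12, edgeR adjusted p = 0.00347). Both passed in all 18 alternatives. In bryostatin 1 both were above every DMSO library, and ZFP36L1 but not IER2 was at its lowest bryostatin value there. NFKBIZ, an inducible nuclear IkB protein, fell by 0.54 on the log2 scale to 43.9 ± 5.07 CPM with bryostatin, against 63.9 ± 1.90 CPM with DMSO (edgeR adjusted p = 0.0211). Among the alternatives the adjusted p lay between 1.25e-05 and 0.129, and leaving out bryostatin 3 or DMSO 1, 2 or 3 gave 0.0724, 0.114, 0.129 or 0.111. On TPM with a pseudocount of 1 or 0.1 it was 0.0571 or 0.0565. MYC had 173 ± 15.9 CPM with bryostatin and 196 ± 6.08 CPM with DMSO (edgeR adjusted p = 0.283).

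Listed downstream and stress genes gave no edgeR call with all 6 libraries. Of 14 textbook AP-1 targets, 9 were tested and 0 passed by edgeR (1 at an unadjusted p under 0.05, 1 called by DESeq2, 0 by limma-voom and 1 by limma-voom with quality weights), with a median log2 fold change of -0.21. HMOX1, CCND1 and CD44 had the smallest p, with log2 fold changes of -0.50, -0.69 and -0.36 (edgeR adjusted p = 0.0620, 0.339 and 0.420). Of 10 heat-shock genes, which respond to handling stress, 0 passed by edgeR (3 at an unadjusted p under 0.05, 1 called by DESeq2, 0 by limma-voom and 6 by limma-voom with quality weights) and 9 had a negative log2 fold change, with a median of -0.18. In other settings heat-shock calls were 3 lower on both TPM settings, 2 lower with the length offset, and 1 higher and 5 lower without bryostatin 1. HSPA8, BAG3 and HSPD1 had log2 fold changes of -0.36, 0.60 and -0.19 (edgeR adjusted p = 0.0855, 0.131 and 0.187). Of the 125 related genes tested over all 10 lists, 6 rose and 1 fell, beside 4.56% of all genes called in either direction. Without bryostatin 1, 26 rose and 16 fell, beside 27.0% of all genes called (13.8% higher and 13.2% lower). None of the lists was compared with chance, and the median over all genes tested was -0.00.

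**Figure D4:**
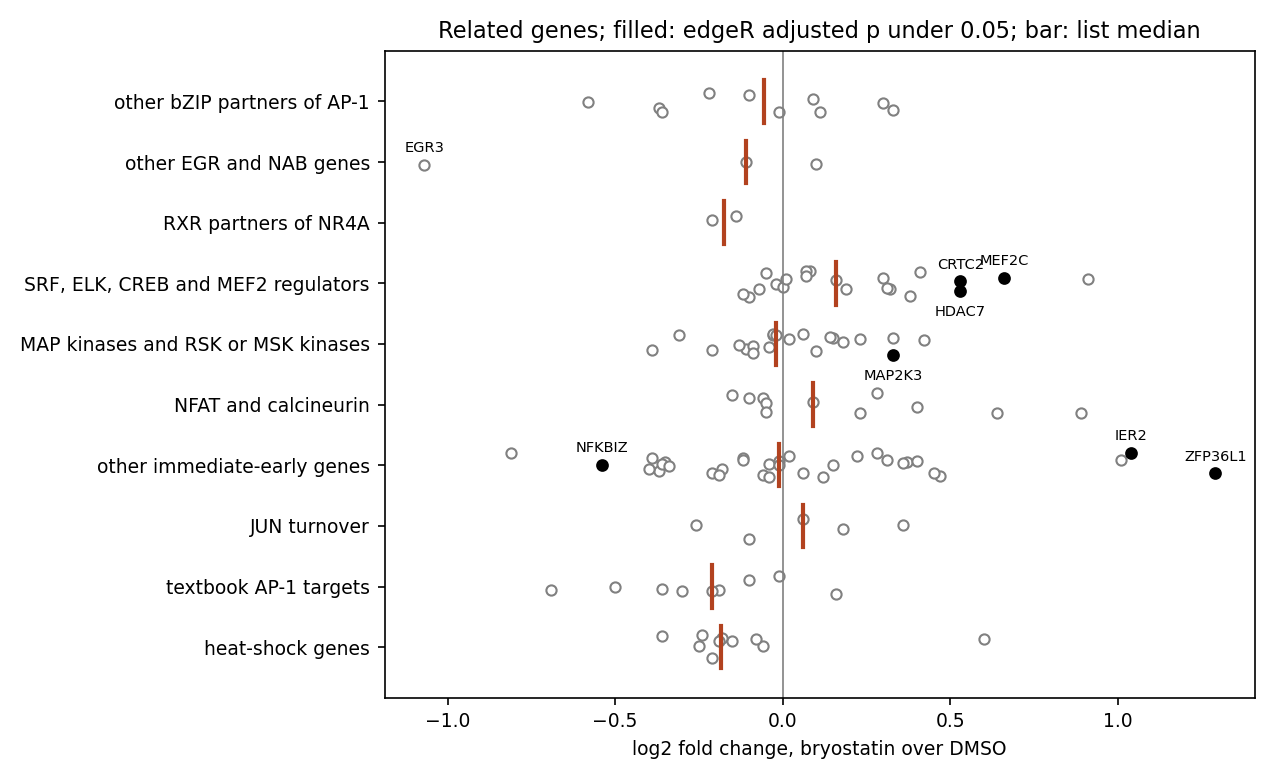
Log2 fold change of bryostatin over DMSO for each tested gene of the 10 related lists, 1 point a gene, with the list median as a vertical bar. Filled and named points passed an edgeR adjusted p under 0.05, and EGR3 is named as an open point at -1.07; the filled points are ZFP36L1, IER2, MEF2C, HDAC7, CRTC2 and MAP2K3 above 0 and NFKBIZ below 0.

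The level patterns over the 6 libraries were compared with those of all other tested genes of at least 5 CPM, by the root mean square distance between centred log2 CPM. The nearest genes to NR4A1 were REPIN1 and TSSC4, at distances of 0.035 and 0.037, against a median of 0.255 over 9242 genes. REPIN1 had 64.2, 75.6 and 77.0 CPM in bryostatin 1, 2 and 3, against 88.2, 101 and 94.3 CPM in DMSO 1, 2 and 3. The nearest to EGR1 were ARID2 and BDP1, at 0.029 and 0.035, against a median of 0.423, and BDP1, like EGR1, was lowest in bryostatin 1 (54.0, 112 and 119 CPM with bryostatin against 92.8, 92.6 and 103 CPM with DMSO). The nearest to FOSL2 was TRIM29, at 0.050, and the nearest to JUNB were CARD8 and NLK, at 0.065 and 0.068. These distances describe 6 libraries that share 2 conditions and 1 divergent library, and were not tested. Each nearest gene was picked as the smallest distance over all genes compared, so it lies below the median by selection.

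**Figure D5:**
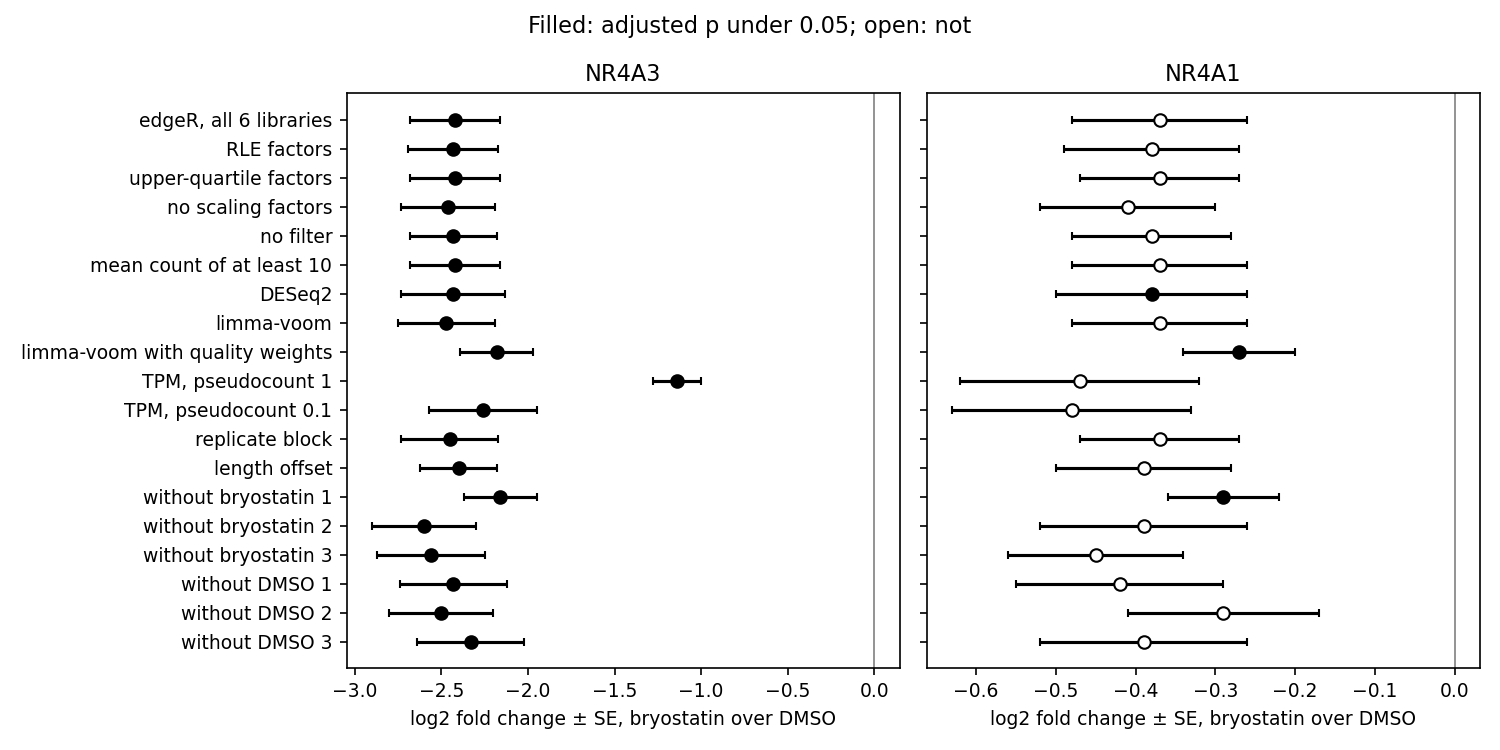
Log2 fold change with SE of NR4A3 and NR4A1, bryostatin over DMSO, in the edgeR fit of all 6 libraries and in 18 alternative settings, on separate horizontal axes. NR4A3 is filled (adjusted p under 0.05) throughout, from -2.60 to -1.14, where the smallest size came with a pseudocount of 1 on TPM, and NR4A1 is filled with DESeq2, with quality weights and without bryostatin 1.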

How the data were processed

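Poly(A)-selected RNA of 6 SC1 libraries was read as paired ends, per the labels' protocols. The authors deposited 1 table of expected counts, FPKM and TPM per gene and library, and the submitters' processing notes list the build GRCh38, DESeq2 1.40.2, RSEM 1.2.28 and HISAT2 2.2.1 without saying what each did. No source used here gives the annotation or the use of strand. The deposited expected counts, of which 6.31 to 7.22% per library were not whole, were rounded. The test was that of edgeR 4.0.16 under R 4.3.3 (TMM, filterByExpr, robust quasi-likelihood, 2-sided, Benjamini-Hochberg over 11613 genes, threshold 0.05). SE is the log2 fold change divided by the root of F. CPM used TMM factors (0.952 for bryostatin 1, 1.00 to 1.02 for the others). The deposited TPM were used for levels between genes, and the deposited FPKM with counts gave transcript lengths. No 2 libraries agreed within sampling noise.

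The fit was tested on simulated counts. Alternatives were RLE, upper-quartile or no factors, a mean count of 10 or more, no filter, DESeq2 1.42.0, limma-voom (limma 3.58.1) with and without quality weights, limma on log2(TPM + 1) and log2(TPM + 0.1), a replicate block, each library left out and, added after seeing the data, a length offset. The members and lists were chosen with earlier results of these data known. Named genes were the members, the 3 genes of each related list with the smallest p, 9 genes always given and the nearest patterns; some of these are not reported here. Gene IDs matched RefSeq GRCh38.p14 for 15767 of 15802 genes, and promoters come from RefSeq.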

Additional observations from a re-analysis of the deposited data

How the results depend on the processing

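NR4A3 kept its direction and its call in every setting tried. Over all genes the 529 calls (432 higher, 97 lower) became 865 with DESeq2, 2988 with quality weights, 338 with the replicate block and 1242 with the length offset, and ranged from 138 to 3183 when 1 library was left out (138, 160 and 145 without DMSO 1, 2 and 3, 332 and 279 without bryostatin 2 and 3, and 3183 without bryostatin 1). The split was 255 higher and 208 lower on TPM with a pseudocount of 1, 256 and 209 with 0.1, and 779 and 463 with the length offset. The 1 member called became 2 with DESeq2 and 4 with quality weights, and 1 to 4 with 1 library left out. The 7 related genes became 14 with DESeq2, 42 with quality weights and 18 with the length offset, and 3 to 42 with 1 library left out (3, 4 and 3 without DMSO 1, 2 and 3, 4 without bryostatin 3 and 42 without bryostatin 1). The cause was not tested.

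Some members with log2 fold changes near 0 changed sign, all without a call. JUN had -0.03 without scaling factors, -0.0027 without a filter, -3.5e-04 by limma-voom, -0.07 on TPM with a pseudocount of 1, -0.09 on TPM with a pseudocount of 0.1 and -0.0059 with the length offset, JUND had -4.3e-05 on TPM with a pseudocount of 1 and -9.1e-04 on TPM with a pseudocount of 0.1, and EGR1 and EGR2 had 0.21 and 0.12 with quality weights. With 1 library left out JUN ranged from -0.14 to 0.17, JUND from -0.04 to 0.17, EGR1 from -0.28 to 0.25 and EGR2 from -0.28 to 0.15. The share differences could not pass 0.05 in any setting, since 0.1 is the smallest exact p for 3 against 3 libraries. With 1 library left out that of JUND was -4.44 to -1.36 percentage points (-4.44 without DMSO 1, -1.36 without DMSO 2). That of FOSL2 was -12.6 to -2.72 (-12.6, -2.72 and -3.38 without bryostatin 1, 2 and 3, and -3.58 without DMSO 1).

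Correlations of deviations between bryostatin and DMSO libraries of the same replicate number were -0.194, -0.184 and 0.0471 for numbers 1, 2 and 3. Deviations were taken from the group mean, which for bryostatin includes the divergent bryostatin 1. These correlations therefore cannot decide whether replicate numbers pair the libraries. With the replicate block the log2 fold change of NR4A3 was -2.45, and edgeR gave it an adjusted p of 0.00574, the members called stayed at 1 and the related genes called were 6, without MAP2K3 (adjusted p 0.107). NR4A2 was below the count filter and was not tested in the fits that used it. Without a filter all 10 members were tested, and 0 rose, 1 fell and 9 did not pass.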
